A study of Mus musculus with 6 samples.

Results

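Platelet-derived growth factor (PDGF) ligand and receptor genes were followed in glomeruli of mice that lack dendrin, a podocyte protein of the slit diaphragm. The set holds the ligand genes Pdgfa, Pdgfb, Pdgfc and Pdgfd and the receptor genes Pdgfra and Pdgfrb. Every probe set that the array annotation gave to exactly 1 of these 6 genes was taken, which were 14 of the 45101 probe sets on the array. The annotation gave a single gene to 34958 probe sets, for 18194 genes in all. The samples were isolated glomeruli of 3 mice labelled Dendrin KO and 3 wild type littermates, all 13 months old, with 1 array per mouse. The labels give the background as 129S6SvEv/C57BL6, which the methods name as the origin of the stem cells before the line was crossed back onto C57BL/6. The knockout was present in all cells of the body, since the coding sequence of dendrin had been exchanged for a cassette with eGFP and a neomycin resistance gene. The values are log2 intensities, which were set side by side only within a probe set.

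PDGF ligands are secreted as dimers and bring together 2 receptor molecules on the target cell, which switches on the tyrosine kinase of the receptors. PDGF-A, PDGF-B and PDGF-C bind the alpha receptor, encoded by Pdgfra, whereas PDGF-B and PDGF-D bind the beta receptor, encoded by Pdgfrb. In the developing glomerulus, PDGF-B from endothelial cells acts on the beta receptor of mesangial cells, the pericyte-like cells that hold the capillary loops together, and mesangial cells are lost without it. PDGF-C and PDGF-D are released in a latent form and are activated by proteases outside the cell.

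The targeted gene was examined first. Ddn, which encodes dendrin, had values of 3.80, 3.81 and 3.80 in knockout 1, 2 and 3 and of 12.22, 12.81 and 12.31 in control 1, 2 and 3, a difference of -8.64 (SE 0.18, adjusted p = 0.0197 by limma), so the labels of all 6 arrays fitted the gene. The study, which used Significance Analysis of Microarrays in place of limma, reported no corrected p under 0.05. Control 2 stood apart from the other arrays in markers of other cell types. Its values lay above the mean of the 6 arrays by a median of 2.16 over 7 markers of loop, distal and collecting segments and by 0.96 over 8 markers of the proximal tubule, while the median over 9 leukocyte markers was -2.12.

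Among the PDGF genes, Pdgfra alone passed the criterion used by the study, with a lower signal in knockout glomeruli. Of its 3 probe sets, 2 passed this criterion, a fold over 1.5 with an unadjusted p under 0.05, and both were lower in the knockout. The knockout values of all 3 lay below every control value. In whole glomeruli, fewer cells of a type and less RNA per cell cannot be told apart. No probe set of the other 5 genes passed the criterion. Across the array, 0.0953% of all probe sets passed the criterion with a lower value in the knockout, or 0.209% of those that were not dim, a dim probe set being one with a mean under log2 4. In either direction, 0.18% of all probe sets passed. None of the 14 probe sets passed an adjusted p of 0.05, since the lowest adjusted p was 0.960. An unadjusted p under 0.05 was reached by 4 of them in limma and by 5 with Significance Analysis of Microarrays (SAM), the test named in the study's methods, and 3 of the 4 belong to Pdgfra. Over the array, limma gave such a p for 3.63% of all probe sets and for 8.12% of those that were not dim, and SAM for 8.07% of those that vary. The criterion was applied here with the p of limma, by which 81 probe sets of the array passed, against 106 with SAM. The same 2 PDGF probe sets passed with either test.

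**Figure D1:**
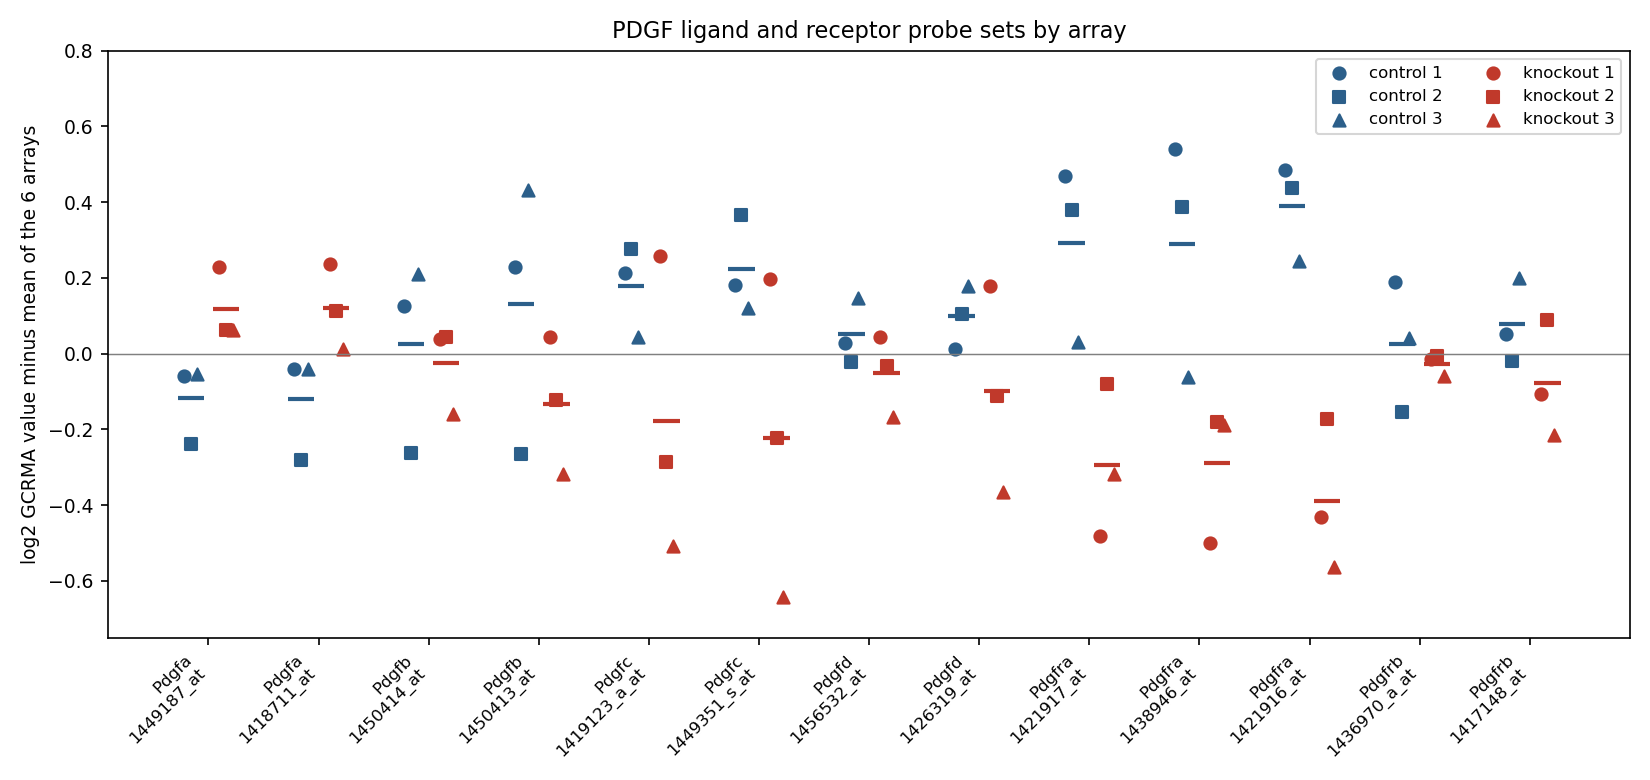
Values of the 13 PDGF probe sets that were not dim, as the log2 value minus the mean of the 6 arrays, with a point per array and a bar at each group mean. Red knockout points lie below all blue control points in the 3 Pdgfra probe sets and above them in the 2 Pdgfa probe sets, and the groups overlap in the other 8.

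Pdgfra encodes the alpha receptor and lies on chromosome 5 at chr5:75151322-75198206 (GRCm38.p6). Probe set 1421917_at, the brightest of the gene, had values of 10.87, 11.27 and 11.03 in the 3 knockouts and of 11.82, 11.73 and 11.38 in the 3 controls. The highest knockout value was 0.112 below the lowest control value, which was that of control 3. The means were 11.06 ± 0.20 (SD, n = 3) and 11.64 ± 0.23 (SD, n = 3), and the difference of -0.59 (SE 0.17, 95% interval -1.05 to -0.13) left 66.6% of the control signal. This probe set passed the criterion with little to spare, since its difference was -0.586 and the limit lay at a size of 0.585, with an unadjusted p of 0.0234 by limma.

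Probe set 1421916_at had values of 6.94, 7.20 and 6.81 in the knockouts and of 7.86, 7.81 and 7.62 in the controls. Here the gap between the groups was widest, 0.418 between knockout 2 and control 3. The knockout signal was 58.3% of the control signal, a difference of -0.78 (SE 0.13, 95% interval -1.13 to -0.42, unadjusted p = 0.00318 by limma, adjusted p = 0.960), and the probe set passed the criterion. Probe set 1438946_at had values of 7.34, 7.66 and 7.66 in the knockouts and of 8.38, 8.23 and 7.78 in the controls. It lay just outside the criterion with a difference of -0.58 (SE 0.20, 95% interval -1.12 to -0.03, unadjusted p = 0.0416 by limma), although its groups did not overlap either. Of the probe sets that were not dim, 5.65% lay below the controls without overlap, against 3 of the 13 PDGF probe sets. The 3 probe sets belong to 1 gene and are not independent of each other. With 3 mice against 3 the exact permutation test gave unadjusted p = 0.1 for each of them, the smallest value that it can give.

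The result for Pdgfra differed between its probe sets when an array was left out. The difference of 1421916_at ranged from -0.89 to -0.69 over the 6 omissions, and it passed the criterion in 6 of 6. The difference of 1421917_at ranged from -0.72 to -0.49 and passed in 2 of 6, since it was -0.49 (unadjusted p = 0.0685) without knockout 1, -0.57 (unadjusted p = 0.0700) without knockout 3, -0.50 (unadjusted p = 0.0706) without control 1 and -0.54 (unadjusted p = 0.0749) without control 2, all by limma. The difference of 1438946_at ranged from -0.75 to -0.45 and passed only without control 3 (-0.75, unadjusted p = 0.00988 by limma). The direction was the same in all of these fits. Control 2, the array that stood apart in tubular and leukocyte markers, lay between the other 2 controls in each of the 3 probe sets. With the replicate block, the replicate number of the labels as a block, only 1421916_at passed (unadjusted p = 0.00710 by limma).

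**Figure D2:**
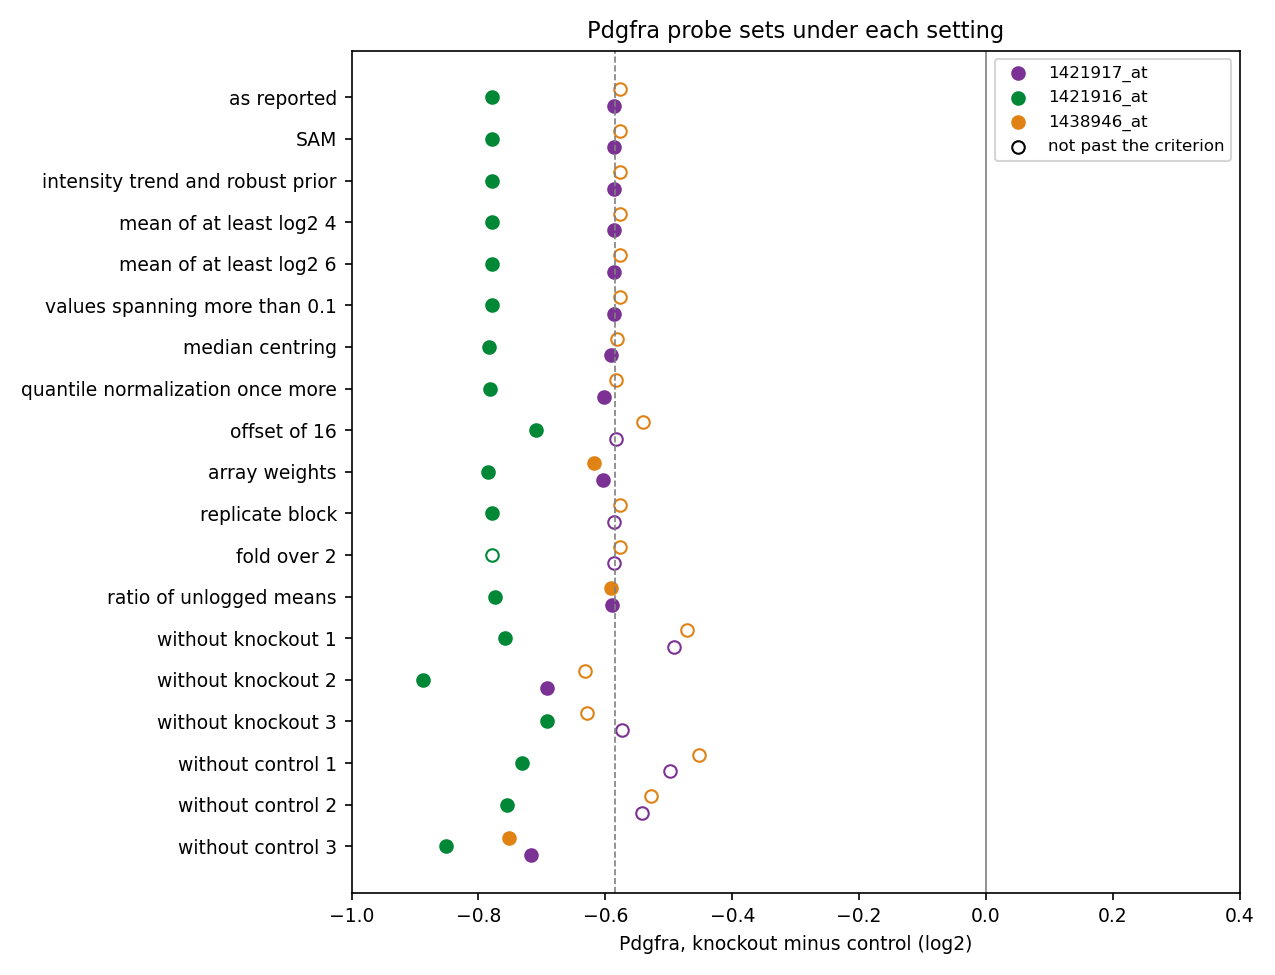
Difference between knockout and control (log2, horizontal axis) of the 3 Pdgfra probe sets under each setting of the processing, with filled points past the criterion, open points not past it, and a dashed line at a fold of 1.5. Probe set 1421916_at is filled in every setting but the fold over 2, and the other probe sets fall on both sides of the line. With an array left out, 1438946_at ranged from -0.75 to -0.45 and 1421917_at from -0.72 to -0.49.

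Promoter sequence was printed for Pdgfra and Pdgfa, the 2 genes whose groups did not overlap in any of their probe sets. The reference table from RefSeq (GRCm38.p6) gave promoters for 4 of the 6 genes, Pdgfa, Pdgfc, Pdgfd and Pdgfra. The windows below hold the 250 bases before a transcription start, 5′ to 3′ on the strand of the gene. They lie inside the outer bounds of their genes, chr5:75151322-75198206 for Pdgfra and chr5:138976014-139000792 for Pdgfa. The sequence before the outermost annotated start of either gene was therefore not searched. Capitals mark the GC box GGGCGG, read on both strands, so that its reverse complement is marked too.
Pdgfra, chr5:75152001-75152250, plus strand: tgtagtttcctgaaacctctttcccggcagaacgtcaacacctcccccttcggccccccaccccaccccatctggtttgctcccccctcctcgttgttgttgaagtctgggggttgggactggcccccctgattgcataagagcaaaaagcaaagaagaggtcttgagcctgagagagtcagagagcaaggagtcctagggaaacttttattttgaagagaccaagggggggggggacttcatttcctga
Pdgfa, chr5:138994282-138994531, minus strand: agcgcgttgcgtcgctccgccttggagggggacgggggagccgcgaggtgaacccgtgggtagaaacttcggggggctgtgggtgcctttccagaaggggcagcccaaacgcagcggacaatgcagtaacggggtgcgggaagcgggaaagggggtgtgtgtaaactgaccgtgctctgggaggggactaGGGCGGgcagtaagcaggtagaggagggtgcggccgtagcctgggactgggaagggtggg
Pdgfa, chr5:138994945-138995194, minus strand: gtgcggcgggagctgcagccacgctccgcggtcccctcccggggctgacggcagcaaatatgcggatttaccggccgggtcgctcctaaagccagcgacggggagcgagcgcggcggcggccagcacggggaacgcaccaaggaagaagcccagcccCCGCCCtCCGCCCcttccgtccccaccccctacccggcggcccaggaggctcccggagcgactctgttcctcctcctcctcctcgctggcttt
The motifs searched on both strands were the TATA box (TATAAA), the CCAAT box (CCAAT), the GC box (GGGCGG), the E-box (CACGTG) and the AP-1 site (TGANTCA), none of which contains another. Over all 32851 promoter windows of the same length, 12.4%, 33.8%, 32.7%, 6.0% and 6.7% held them. The Pdgfra window held none of these motifs and had a GC content of 54.4%, close to the median of 52.4% over all windows. The first Pdgfa window held 1 GC box at a GC content of 66.4%, and the second held 2 at 72.4%. A match describes the letters of the window only.

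Pdgfrb, the gene of the beta receptor, did not pass the criterion in either probe set. It lies on chromosome 18 (61045127 to 61085067, GRCm38.p6). Probe set 1436970_a_at had values of 13.20, 13.21 and 13.16 in the knockouts and of 13.40, 13.06 and 13.26 in the controls. The 3 knockout values lay within the range of the controls, and the difference was -0.05 (SE 0.10, 95% interval -0.31 to 0.21). Probe set 1417148_at had values of 10.31, 10.51 and 10.21 in the knockouts and of 10.47, 10.40 and 10.62 in the controls, with a difference of -0.15 (SE 0.11, 95% interval -0.44 to 0.13). Both intervals lay within a fold of 1.5 in either direction.

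The change of Pdgfra was set against that of each other member, with the brightest probe set of each gene. This comparison was chosen after the values had been seen. Pdgfra differed from Pdgfrb by -0.53 in its change and from Pdgfa by -0.82, and in both cases the knockouts lay below the controls without overlap (exact permutation p = 0.1 each, the smallest possible, and 0.25 after adjustment over the 5 pairs). The differences from Pdgfb, Pdgfd and Pdgfc were -0.54, -0.48 and -0.23, and there the groups overlapped (exact permutation p = 0.3, 0.2 and 0.8). With 3 mice in each group, this exact permutation test could not reach a p of 0.05.

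The ligand genes held 9 of the 14 probe sets, and none passed the criterion. Pdgfa, which encodes a ligand of the alpha receptor only, lies at chr5:138976014-139000792. Its probe set 1449187_at had values of 8.98, 8.81 and 8.81 in the knockouts and of 8.69, 8.51 and 8.69 in the controls. All 3 knockouts lay above all 3 controls, by 0.117 at the nearest. The difference was 0.24 (SE 0.08, 95% interval 0.02 to 0.45, unadjusted p = 0.0367 by limma, adjusted p = 1), a fold below 1.5. Probe set 1418711_at had values of 8.55, 8.43 and 8.33 in the knockouts and of 8.27, 8.03 and 8.28 in the controls, again without overlap, with a difference of 0.24 (SE 0.10, unadjusted p = 0.0676 by limma). Of the probe sets that were not dim, 8.03% lay above the controls without overlap, against these 2 of the 13. Control 2 was the lowest array in both, and without it the differences were 0.18 and 0.16.

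Pdgfb encodes the ligand through which endothelial cells reach the beta receptor, and it lies at chr15:79995865-80024614. Probe set 1450414_at had values of 11.05, 11.05 and 10.85 in the knockouts and of 11.14, 10.75 and 11.22 in the controls. Control 2 was the lowest array and control 3 the highest, so that the knockouts fell inside the range of the controls. The difference was -0.05 (SE 0.15, 95% interval -0.47 to 0.37). Probe set 1450413_at had values of 8.97, 8.81 and 8.61 in the knockouts and of 9.16, 8.67 and 9.36 in the controls, with the same array lowest among the controls, and its difference was -0.26 (SE 0.22, 95% interval -0.87 to 0.34). Without control 2 the differences were -0.19 for 1450414_at (unadjusted p = 0.105 by limma) and -0.46 for 1450413_at (unadjusted p = 0.0456 by limma), and neither passed the criterion. The interval of the first probe set excluded a fold of 1.5, while that of the second did not.

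Pdgfb lies on the chromosome that carries the targeted gene, 18.8 Mb from Ddn, and 24.7 kb from its neighbour Cbx7, a Polycomb group gene. Cbx7 was looked at after its values had been seen. Its probe set 1420039_s_at was lower in the knockouts, at 5.06 ± 0.04 (SD, n = 3) against 6.40 ± 0.48 (SD, n = 3), and passed the criterion with a difference of -1.34 (SE 0.27, unadjusted p = 0.00604 by limma, adjusted p = 1). Another probe set, 1433557_at, was lower without overlap by a smaller amount and did not pass (-0.53, SE 0.13), and the last was constant. The neighbouring Pdgfb did not pass in either probe set.

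Pdgfc encodes a latent ligand of the alpha receptor and lies at chr3:81036416-81214040. Probe set 1419123_a_at had values of 10.76, 10.22 and 9.995 in the knockouts and of 10.72, 10.78 and 10.55 in the controls. Knockout 1 was level with the controls, whereas knockout 2 and knockout 3 were lower than all of them. The difference was -0.36 (SE 0.23, 95% interval -0.97 to 0.26). Probe set 1449351_s_at had values of 9.29, 8.87 and 8.45 in the knockouts and of 9.27, 9.46 and 9.21 in the controls, with the same array apart and a difference of -0.44 (SE 0.24, 95% interval -1.10 to 0.21, unadjusted p = 0.137 by limma). This probe set passed the criterion only when knockout 1 was left out (-0.65, unadjusted p = 0.0281 by limma). Neither interval excluded a fold of 1.5.

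Pdgfd encodes the latent ligand of the beta receptor and lies at chr9:6168363-6534284. Probe set 1456532_at had values of 11.18, 11.11 and 10.97 in the knockouts and of 11.17, 11.12 and 11.29 in the controls, a difference of -0.10 (SE 0.08, 95% interval -0.31 to 0.10). Probe set 1426319_at had values of 9.26, 8.97 and 8.72 in the knockouts and of 9.10, 9.19 and 9.26 in the controls, a difference of -0.20 (SE 0.16, 95% interval -0.62 to 0.23). Knockout 3 was the lowest array in both, and the groups overlapped. The remaining probe set, 1446691_at, was at 2.20 on all 6 arrays, at the floor of the values, and gave no information on the gene.

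**Figure D3:**
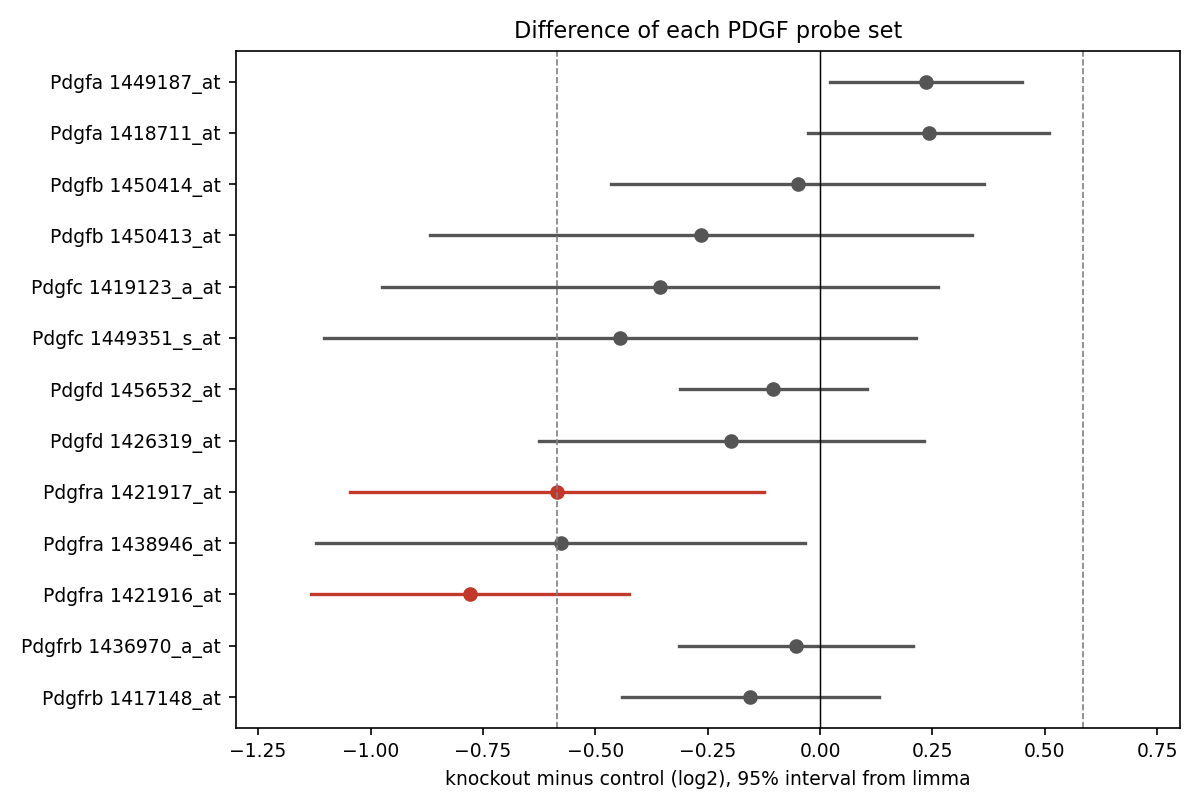
Difference between knockout and control (log2, horizontal axis) of the 13 PDGF probe sets that were not dim, with the 95% interval from limma as a bar and dashed lines at a fold of 1.5 in either direction. The 2 red Pdgfra probe sets passed the criterion, and 6 of the 13 intervals lie wholly between the dashed lines.

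Over the 13 probe sets that were not dim, 11 had a lower mean in the knockout and 2, both of Pdgfa, a higher one. Their median difference was -0.20, against 0.015 over all probe sets of the array that were not dim. The 13 probe sets belong to 6 genes, and those of 1 gene are not independent of each other. The interval excluded a fold of 1.5 for 6 of the 13, which were both probe sets of Pdgfa and of Pdgfrb and 1 each of Pdgfb and Pdgfd. The intervals of the other 7 did not exclude it.

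The genes around the receptors were then examined, as lists of proteases, co-receptors, signalling proteins, inhibitors, early targets, related receptors and chromosome neighbours, with the brightest probe set of each gene. Of the 69 genes measured, none passed the criterion with limma or with SAM, 1, the protease gene Pcsk6, passed without control 2 (0.59), and 6 had an unadjusted p under 0.05 by limma and 6 by SAM, against 8.12% of the probe sets that were not dim by limma and 8.07% of those that vary by SAM. Their median difference was -0.01. Of the 7 proteases that activate PDGF ligands, 3 were higher and 4 lower, and the groups overlapped in those furthest from 0. These were the furin-type convertase genes Pcsk6, at 0.35 (SE 0.24), and Pcsk7, at -0.15 (SE 0.10), and St14, the gene of matriptase, an activator of PDGF-D, which was dim at -0.11 (SE 0.11).

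Among 5 measured co-receptors and matrix proteins that retain PDGF, Nrp1, the gene of the co-receptor neuropilin-1, was at 14.07 ± 0.02 (SD, n = 3) in the knockouts and 14.16 ± 0.03 (SD, n = 3) in the controls, a difference of -0.09 (SE 0.02, unadjusted p = 0.0145 by limma, adjusted p = 1). Hspg2, the gene of perlecan in the basement membrane, was at 5.88 ± 0.23 (SD, n = 3) and 6.43 ± 0.48 (SD, n = 3), a difference of -0.55 (SE 0.29, unadjusted p = 0.128 by limma). Both lay below the controls without overlap. The value for Hspg2 was -0.28 without control 3. Nrp1 had an unadjusted p of 0.116 by limma in a fit over probe sets with a mean of at least log2 4. Lrp1, the gene of an endocytic co-receptor of the beta receptor, overlapped between the groups at 0.09 (SE 0.25).

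None of the genes whose proteins relay the receptor signal passed the criterion. Of 23 measured genes, 13 were higher and 9 lower, with a median difference of 0.01, and the largest differences were those of the adaptor genes Shc1, at -0.30 (SE 0.22), Nck1, at -0.20 (SE 0.09), and Nck2, at 0.17 (SE 0.07), whose groups overlapped. Map2k1, which encodes a MAP kinase kinase, had the only unadjusted p under 0.05 in the list, with a difference of 0.08 (SE 0.02, unadjusted p = 0.0109 by limma). In a fit over probe sets with a mean of at least log2 4, its unadjusted p was 0.122 by limma. Of 10 genes of attenuation, which include phosphatases, ubiquitin ligases and feedback inhibitors, 2 were higher and 8 lower, with a median of -0.06. Cblb, a ubiquitin ligase gene, was at a difference of -0.11 (SE 0.04, unadjusted p = 0.0425 by limma). In the fit over means of at least log2 4, its unadjusted p was 0.0987 by limma. The inhibitor genes Socs3, Spry1 and Spry4 had the largest differences of the list, -0.39 (SE 0.77), 0.24 (SE 0.24) and -0.19 (SE 0.18).

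Of 10 early response genes, 4 were higher and 6 lower, with a median of -0.05. The spread within groups was wide for Fos, an AP-1 subunit, whose means were 12.38 ± 0.88 (SD, n = 3) in the knockouts and 13.14 ± 0.94 (SD, n = 3) in the controls. Fosb, another AP-1 subunit, was dim, with a difference of -1.69 (SE 1.26), and Ccl2, a monocyte chemokine gene, was at 0.33 with the widest error of the list (SE 1.99). Without control 2, Fos was at -0.26 and Fosb at -0.56, and the median of the list was 0.07. Srf, the gene of serum response factor, was higher without overlap by 0.25 (SE 0.06, unadjusted p = 0.0118 by limma, adjusted p = 1), a fold below 1.5. Among 5 measured genes of the related receptors and their ligands, Csf1r, a macrophage receptor, was at 11.06 ± 0.50 (SD, n = 3) against 10.35 ± 1.55 (SD, n = 3), and its difference turned from 0.71 to -0.18 without control 2. Its ligand gene Csf1 was at -0.09 (SE 0.14).

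Pdgfra lies in a row of receptor genes on chromosome 5, with Kit 376.8 kb away. None of 10 neighbouring genes passed the criterion, and their median difference was 0.02. Kit, the receptor of stem cell factor, was dim at -0.22 (SE 0.15). Kdr, a receptor of vascular endothelial growth factor, was at a difference of -0.22 (SE 0.06, unadjusted p = 0.0246 by limma), and Clock, a transcription factor of the circadian clock, was at 0.30 (SE 0.11, unadjusted p = 0.0433 by limma). Neither reached a fold of 1.5.

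**Figure D4:**
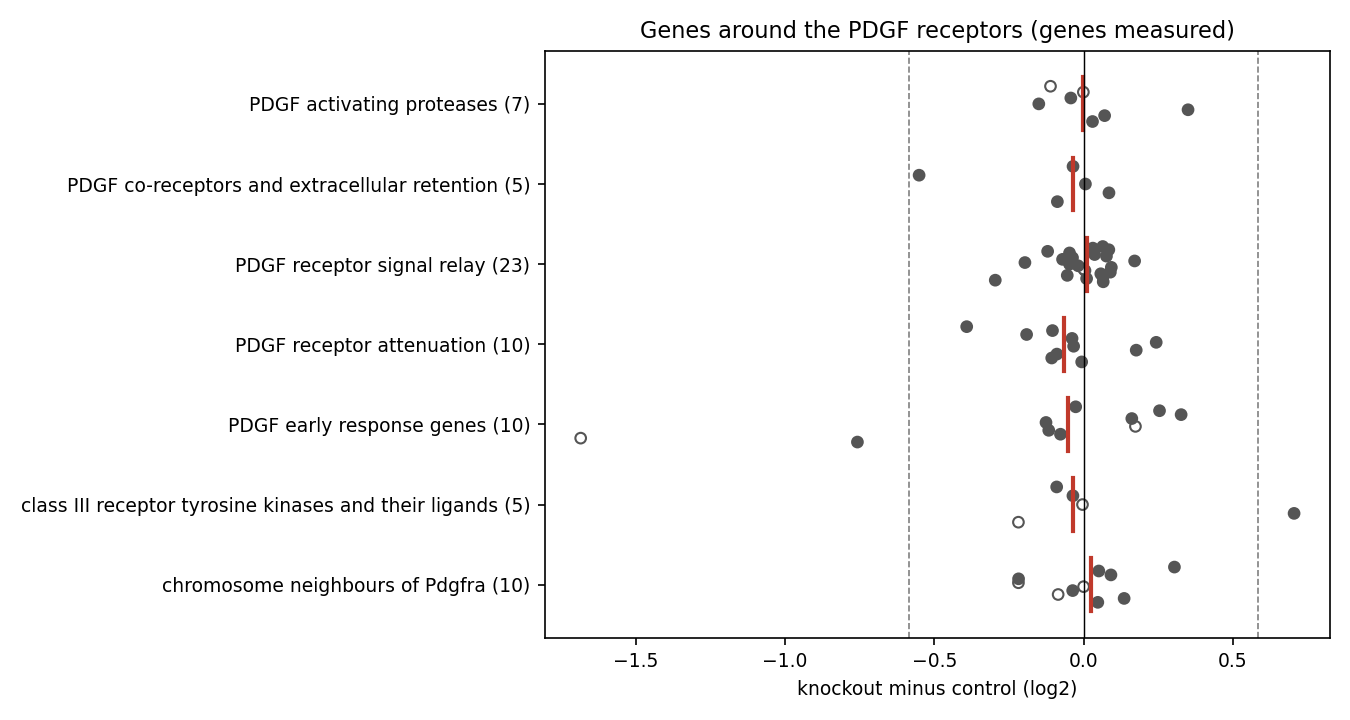
Difference between knockout and control (log2, horizontal axis) of each measured gene in 7 lists around the PDGF receptors, with open points for dim genes, a red bar at the median of each list and dashed lines at a fold of 1.5. The points beyond the lines, which are Fosb, Fos and Csf1r, did not pass the criterion, since their unadjusted p lay above 0.05.

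Markers of the cell types in the isolate were set beside the PDGF values. The isolate held the signal of mesangial cells, the main glomerular site of Pdgfrb. Of 11 measured mesangial and pericyte markers, 8 were higher and 3 lower in the knockouts, with a median of 0.04. Their summed log2 values ranged from 120.8 to 121.5 in the knockouts and from 118.0 to 121.4 in the controls. Itga8, the mesangial integrin gene, had values of 13.99, 13.94 and 13.87 in the knockouts and of 14.03, 13.85 and 13.92 in the controls, which overlapped.

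In this list, Tagln alone passed the criterion. Tagln, the gene of the contractile protein transgelin, had values of 10.52, 10.11 and 10.14 in the knockouts and of 9.38, 10.01 and 9.35 in the controls, and it was higher in the knockouts by 0.68 (SE 0.24, unadjusted p = 0.0458 by limma, adjusted p = 1). Acta2, the gene of smooth muscle actin, and Myh11, the gene of smooth muscle myosin, overlapped between the groups at 0.44 (SE 0.19) and 0.41 (SE 0.39). Both passed when control 2 was left out (0.59 and 0.78), and Tagln then stood at 0.89. Tagln did not pass when any other array was left out (0.54 to 0.75).

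Fibroblasts carry Pdgfra in many tissues. Of 9 fibroblast markers, 5 were dim, and Col1a1, Lum, Dpt and Mfap5 were at the floor of the values, 2.20, on all 6 arrays. In this list 2 were higher and 3 lower in the knockouts, and the median over the 4 that were not dim was -0.26. The summed values ranged from 37.3 to 39.1 in the knockouts and from 36.7 to 38.3 in the controls. Meox1, a homeobox gene of mesenchymal cells, had values of 5.62, 5.23 and 5.27 in the knockouts and of 6.09, 5.84 and 6.75 in the controls. It passed the criterion with a difference of -0.85 (SE 0.28, unadjusted p = 0.0364 by limma, adjusted p = 1). It did not pass without knockout 1, knockout 2, knockout 3 or control 1 (-0.98, -0.78, -0.80 and -0.92). Dcn, the gene of decorin, was higher without passing it with limma (1.06, SE 0.44, unadjusted p = 0.0707), and it passed with SAM. Col1a2 had a mean of 11.17 over the 6 arrays, and its groups overlapped at a difference of -0.08 (SE 0.08). Postn lay below the controls without overlap at -0.43 (SE 0.25) and did not pass the criterion.

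Of 10 markers of glomerular endothelium, the source of Pdgfb, 9 were lower and 1 was higher, with a median of -0.13. None passed the criterion, and 4 had an unadjusted p under 0.05 by limma, namely Kdr, Flt1, Emcn and Tek, which lay below the controls without overlap. Of the probe sets that were not dim, 8.12% had such a p in either direction and 5.65% lay below without overlap. Emcn had an unadjusted p of 0.155 by limma in a fit over probe sets with a mean of at least log2 4. It was 0.188 for means of at least log2 6 and 0.240 for spans above 0.1. Kdr, Flt1 and Tek stayed under 0.05 in these fits. Tie1, an endothelial receptor gene with the largest difference of the list, was at -0.23 (SE 0.14) with overlapping groups. The summed values ranged from 120.32 to 121.42 in the knockouts and from 121.44 to 122.97 in the controls. These markers moved in the direction of Pdgfra by a smaller amount, and their part in its difference was not tested. All 5 measured podocyte markers were higher, with a median of 0.16 and summed values of 67.7 to 68.2 in the knockouts and 66.8 to 68.2 in the controls, and none passed the criterion.

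Of 9 leukocyte markers, all were higher with a median of 0.66, which was -0.19 without control 2. The 8 proximal tubule markers had a median of -0.20, or 0.29 without that array. Of these, Aqp1, a water channel gene, lay below the controls without overlap at -0.33 (SE 0.12, unadjusted p = 0.0471 by limma), a fold below 1.5. The 7 markers of loop, distal and collecting segments had a median of -0.44, or -0.06 without it. Of 3 parietal epithelial markers, 2 were higher and 1 lower, with a median of 0.005. This median was the value of a dim gene, and over the 2 markers that were not dim it was 0.25. Cldn1 lay above the controls without overlap at 0.74 (SE 0.28, unadjusted p = 0.0515 by limma). The 5 platelet markers had a median of 0.05, and 3 of them were dim. No gene of these lists passed the criterion with limma, while SAM passed 1 parietal gene, Cldn1, and 1 gene of the loop, distal and collecting segments passed without control 2. The part of these cells in the difference of Pdgfra was not tested.

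**Figure D5:**
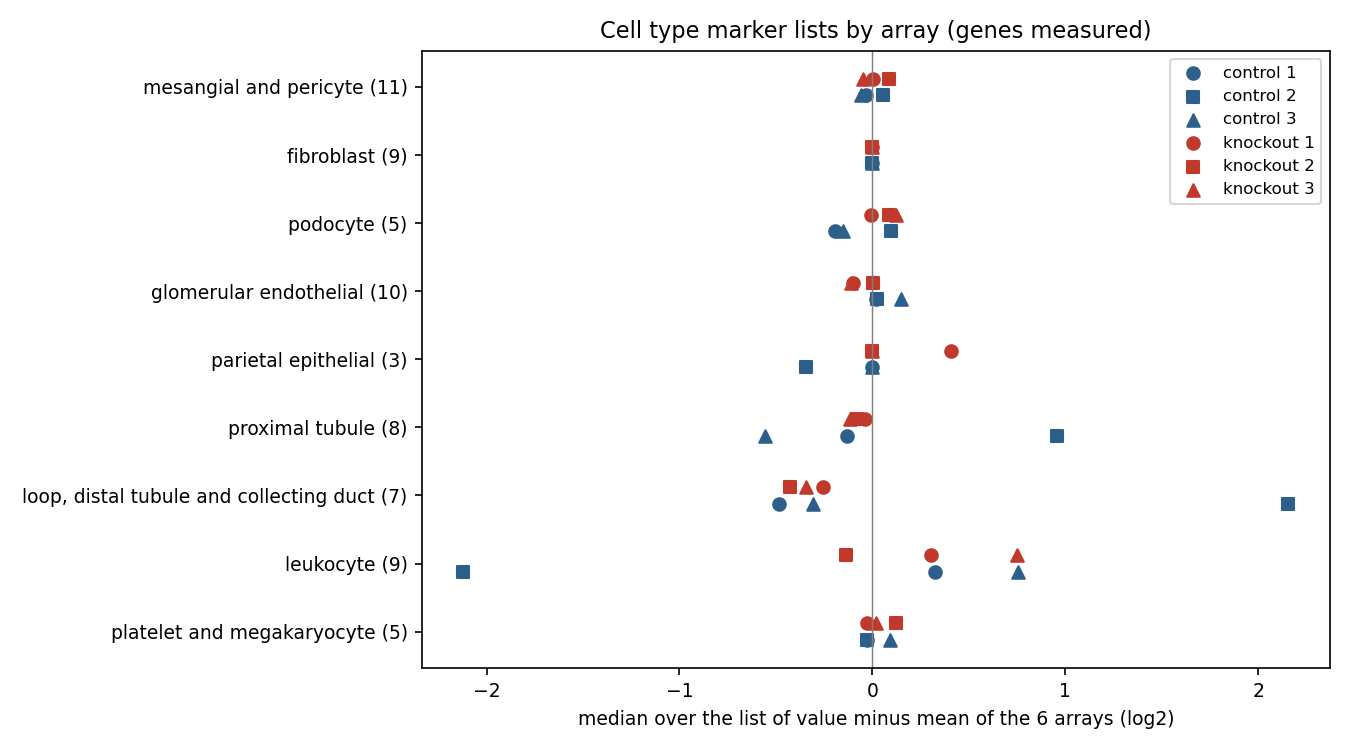
Median over each marker list of the log2 value minus the mean of the 6 arrays (horizontal axis), with a point per array and the number of genes measured in brackets. Control 2, the blue square, stands apart in the tubular and leukocyte lists, and the 3 knockouts lie below the 3 controls in the endothelial list.

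Genes whose 6 values were most like those of each receptor were listed as a description. Likeness was Pearson's r over the 6 arrays, among genes with a mean of at least log2 4 and a span over 0.5. For Pdgfra, the nearest of 2708 genes were Cd300lg (r = 0.961), an endothelial receptor gene, Hlf (r = 0.955), a transcription factor with a daily rhythm, Tbc1d32 (r = 0.952), Cry1 (r = 0.949), a repressor of the circadian clock, and Wdr20 (r = 0.945). All 5 lay below the controls without overlap, and Cd300lg and Hlf passed the criterion. For Pdgfrb, they were Heg1 (r = 0.962), an endothelial junction gene, Accs (r = 0.960), Tram1l1 (r = 0.958), Ubash3b (r = 0.958) and Robo1 (r = 0.957), a guidance receptor gene. The groups overlapped for each of these 5, as they did for Pdgfrb. Being the highest of many, these values of r are high by choice, and the points share the split between the groups.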

How the data were processed

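RNA of isolated glomeruli was hybridized to Affymetrix whole-genome mouse arrays, 1 per mouse. The authors made the deposited log2 values with GCRMA (version 2.30.0), which subtracts background, normalizes by quantiles and summarizes probes. There are no counts behind these intensities, and precision is limited by the small number of arrays. The labels call the arrays of a group biological replicates.

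Arrays were grouped by the genotype in the labels. Gene names came from the platform annotation, in which 34958 probe sets had 1 gene, 932 had several and 9211 were not listed. Knockout and control were compared with limma (version 3.58.1, R 4.3.3), lmFit and eBayes, two-sided, over all 45101 probe sets, with no filter or covariate. P-values were adjusted by Benjamini-Hochberg across the whole array. SAM was written out in R. The procedure was tested on simulated data. Exact permutation tests were two-sided. Where 1 probe set stood for a gene, it was the one with the highest mean.

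The members and gene lists were chosen with earlier results of these data known. All member probe sets were named, and of each list the members past the criterion and up to 3 with the largest difference, which were none for the podocyte, parietal, tubular, leukocyte and platelet lists. List genes with an unadjusted p under 0.05, Itga8, Cldn1, Col1a2 and Postn were added after their values were seen. Lists were described by counts and medians, with no set test. Some genes of the lists are not reported here. Alternatives were SAM, a trended and robust variance prior, means of at least log2 4 or 6, spans above 0.1, median centring, a further quantile normalization, an offset of 16, array weights, the replicate block, a fold limit of 2, unlogged group means, the mean over the probe sets of a gene and each array left out once.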

Additional observations from a re-analysis of the deposited data

How the results depend on the processing

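For the brightest probe set of each PDGF gene and the count of member probe sets past the criterion, 115 of 132 values under the alternatives were scored as the same. For a gene this meant the same direction and the same side of the threshold. For a gene that did not pass, a fold over 2 could only be scored as the same. A count of 3 in place of 2 was also scored as the same, and a count of 1 or 0 as moved. Without knockout 1 the count stayed at 2, of which 1 was the Pdgfc probe set 1449351_s_at. Pdgfra no longer passed the criterion with an offset of 16 (-0.5826), the replicate block (-0.5862) or a fold over 2 (-0.5862). Its difference ranged from -0.7175 to -0.492 when each array was left out, and it passed in 2 of these 6 fits. The count of member probe sets past the criterion, 2, was 1 with the offset of 16 and with the replicate block, 0 with a fold over 2, 3 with array weights and with the ratio of unlogged means, and 1 to 3 when each array was left out. The difference of Pdgfb ranged from -0.1932 to 0.04206 and that of Pdgfrb from -0.1423 to 0.02851 with arrays left out, so their signs were not settled. Without control 2, 140 probe sets on the whole array passed the criterion in place of 81, and 14 did with a fold over 2. For list genes, differences changed sign with array weights for Lrp1 (-0.05446) and Ccl2 (-0.796) and with unlogged means for Ccl2 (-0.6656). With each array left out, they ranged across 0 for St14 (-0.1668 to 0.0004472), Lrp1 (-0.1398 to 0.2238), Socs3 (-1.022 to 0.1039), Ccl2 (-1.603 to 1.395), Csf1r (-0.1783 to 1.258) and Csf1 (-0.1963 to 0.009163). For Nrp1, Map2k1, Cblb and Emcn, the unadjusted p by limma was 0.192, 0.204, 0.150 and 0.240 over spans above 0.1. The cause of these changes was not tested.

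The replicate numbers were not taken to pair the samples. Deviations of same-numbered arrays correlated at 0.095, 0.35 and 0.25. Every array correlated best with its own number, which is a hint from the data and not from the design. For control 1 this was nearly a tie, at 0.0949 with knockout 1 and 0.0943 with knockout 3. The deviations were taken from the group means, so these matches are not independent of each other. The replicate block changed the array-wide count past the criterion from 81 to 64.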
